A study of Mus musculus with 12 samples.

Results

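Central regulatory T cells (cTregs) from which CD25 had been deleted were compared with cTregs that keep it, in 6 of the 12 libraries of a mouse RNA-seq study, 3 of knockout (KO) and 3 of wild-type (WT) cells. All 12461 genes with enough reads to test, out of 24421 gene symbols, were followed through this comparison. CD25, encoded by Il2ra, is the alpha chain of the high-affinity receptor for interleukin-2 (IL-2). Tregs hold back immune responses and depend on the transcription factor Foxp3, but make little IL-2 themselves and take it up from other T cells. The receptor signals through the kinases JAK1 and JAK3 to the transcription factor STAT5, which sustains Foxp3 and survival genes. Its other arms run through PI3K and mTORC1 to growth, nutrient uptake and protein synthesis.

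All mice carried R26tomato, a red reporter, and Foxp3eGFPERT2, which by its name joins a green reporter and a tamoxifen-dependent element to Foxp3, and all received 2 mg/kg tamoxifen by intraperitoneal injection for 5 days. Cells were taken 10 days later from spleen and lymph nodes, and each library pooled 2 to 3 mice. Sorting used viability, CD4, GFP and tdTomato. The central and effector (eTreg) gates were set apart by the level of a surface marker. KO cells of both gates were also gated as low in CD25, so a KO library holds cells chosen on the protein as well as the genotype. The sources used here give no strain, sex or age. Samples were grouped by title and cell type. The genotype field reads the other way round, with CD25FL/FL beside the WT titles and CD25WT/WT beside the KO titles.

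Total counts of the 6 cTreg libraries ran from 14646793 to 17806151. The ribosomal RNA gene Rn45s took 22.4 to 24.4% of counts in WT and 18.1 to 18.5% in KO cTreg, and leaving it out of the library size moved few calls. Il2ra averaged 560 CPM (each library's counts scaled to a common total, after TMM normalization) in WT and 116 CPM in KO cTreg. That is the direction of the titles. The deletion and the CD25 gate cannot be told apart in that difference. The same holds for every KO against WT difference below, in cTreg and in eTreg. Cd4 averaged 565 CPM in WT and 784 CPM in KO cTreg, and Foxp3 393 and 227 CPM. Summed markers of B and plasma cells reached 16.4 to 20 CPM in WT and 10 to 13.1 CPM in KO cTreg, with Ms4a1 and Fcer2a at 0. Those of myeloid cells reached 28.7 to 31.7 and 31 to 39.1 CPM, with Clec9a and Cebpe at 0. Those of CD8 T and NK cells reached 21.4 to 23.3 and 31.9 to 38.9 CPM, with Ncr1, Klra8, Klra9 and Klre1 at 0. Those of stromal and endothelial cells reached 253 to 279 and 203 to 205 CPM, with Dcn, Lum and Pdpn at 0. The part of such cells in the results was not tested. In bulk RNA, fewer cells of a type and less RNA per cell cannot be told apart.

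Of 12461 genes, 3421 (27.5%) differed between KO and WT cTreg at an adjusted p under 0.05, 1847 of them higher (14.8%) and 1574 lower (12.6%) in KO. These are the background shares against which each gene group is read. The groups were chosen with earlier results of these data known, so the shares are a reference and not a test. A gene is called higher or lower here when it passed that threshold in the quasi-likelihood test of edgeR, with p-values adjusted over all genes by the Benjamini-Hochberg method. Log2 fold changes are KO against WT, with their SE, from 3 libraries per group. Most calls were small: 2102 of them (61.4%) were under 1.5-fold, while 531 genes (4.26%) were at least 2-fold higher and 211 (1.69%) at least 2-fold lower. The median log2 fold change over all genes tested was 0.00. With an offset for transcript length and GC content the split turned to 1468 higher and 2213 lower, with a median over all genes of -0.05. Nothing in the labels shows that the pools were made on separate days, so p-values measure the spread between these pooled libraries.

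**Figure D1:**
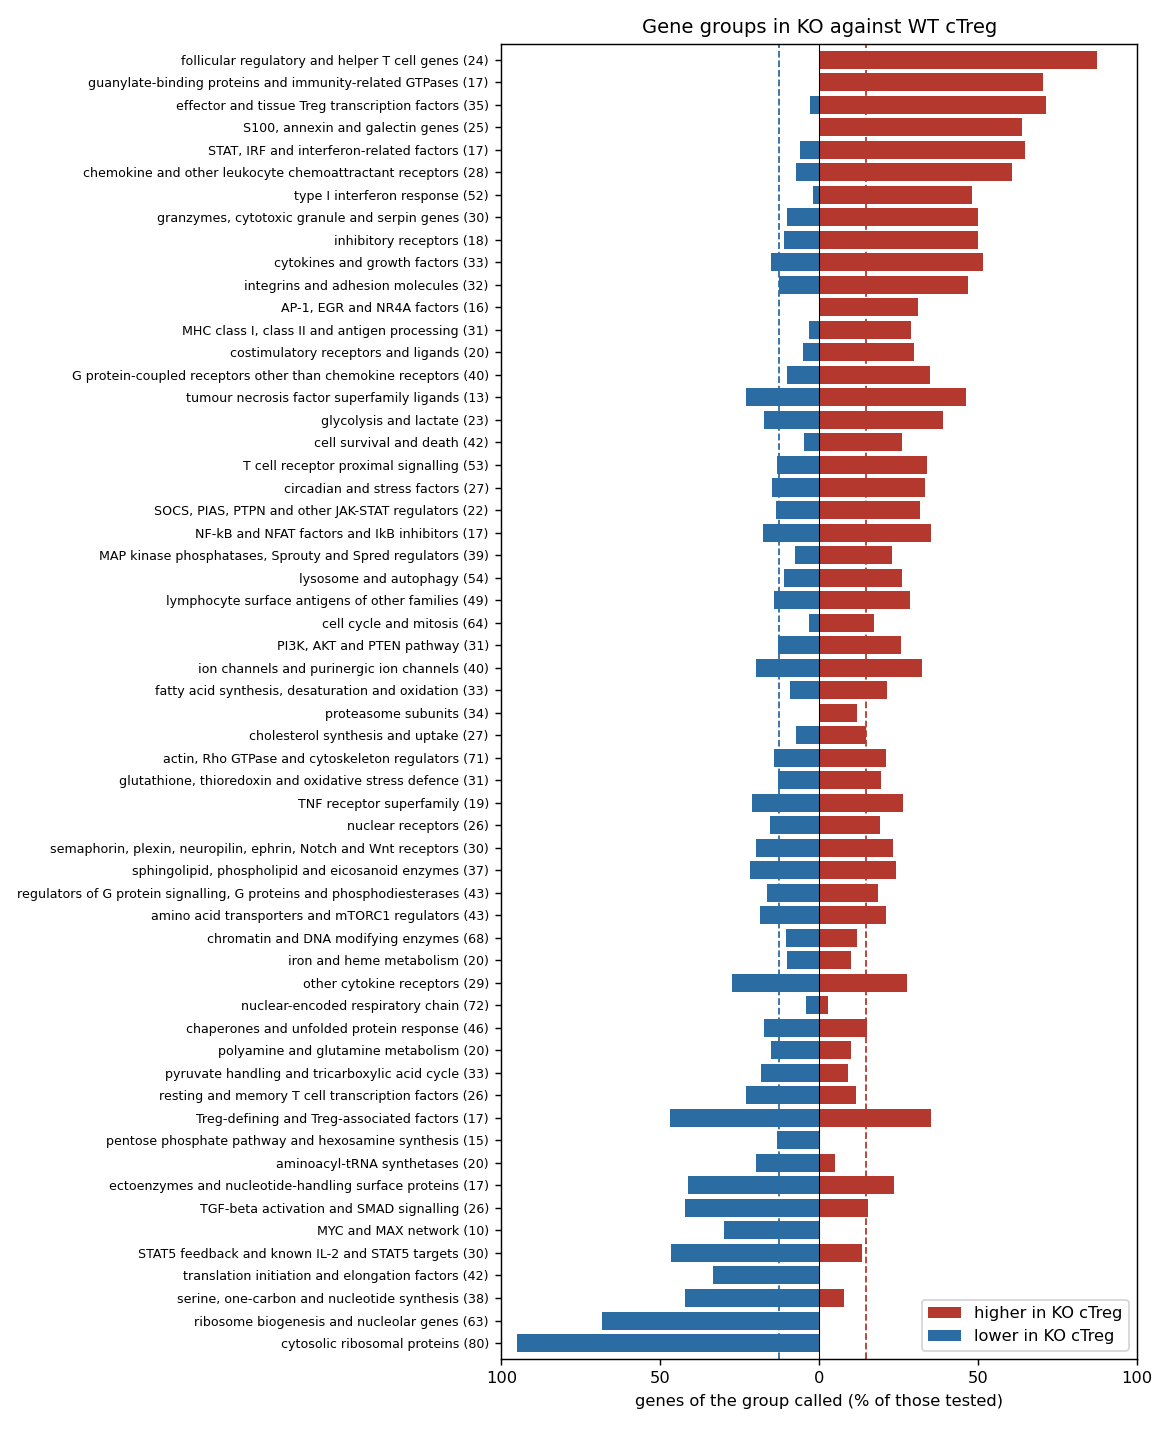
Share of the tested genes of each gene group called higher (right, red) or lower (left, blue) in KO than in WT cTreg, in percent; the number of genes tested stands behind each name, and dashed lines mark the shares over all genes, 14.8% higher and 12.6% lower. Ribosomal protein genes lie far to the left and follicular and effector transcription factor genes far to the right.

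Many known outputs of the IL-2 pathway were lower in KO cTreg, while the genes that carry its signal moved by little and in both directions. Of 30 tested STAT5 feedback genes and known IL-2 and STAT5 targets, 14 were lower and 4 higher in KO cTreg, with a median log2 fold change of -0.28. Cish, which encodes a feedback inhibitor induced by STAT5, stood at 173, 148 and 170 CPM in WT and at 69.6, 61.8 and 62.2 CPM in KO cTreg. All KO libraries lay far below all WT libraries, a log2 fold change of -1.34 ± 0.11 (adjusted p = 4.47e-06). The related inhibitor gene Socs1 fell by less, from 82 ± 7.16 to 56.7 ± 6.54 CPM (SD, n = 3; log2 fold change -0.53 ± 0.11). Lta, the gene of the cytokine lymphotoxin alpha, fell from 50.8, 41.2 and 41.1 CPM to 16.9, 15.7 and 17.2 CPM (-1.42 ± 0.09). The cytokine gene Osm fell from 39.8 to 24.9 CPM and Ccnd2, a D-type cyclin that drives entry into the cell cycle, from 992 ± 22.2 to 591 ± 6.97 CPM. Against this direction, the survival kinase gene Pim2, named after its value was seen, rose from 35.8 ± 2.12 to 56.1 ± 2.15 CPM, and the transcriptional repressor genes Nfil3 and Prdm1 rose by 1.83 and 1.85 on the log2 scale.

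Among the genes that carry the signal, Il2rb, the beta chain of the receptor, fell from 664 ± 39 to 506 ± 27.3 CPM (-0.39 ± 0.05). Jak3 rose from 379 ± 22.1 to 437 ± 21.1 CPM (adjusted p = 0.0265) and Stat5b from 337 ± 21.5 to 375 ± 15.8 CPM (adjusted p = 0.0315). The offset for length and GC ended the call of Jak3, and so did leaving out WT cTreg replicate 3 or KO cTreg replicate 1 or 2 (adjusted p up to 0.13). That of Stat5b ended with the offset, in the 6 cTreg libraries alone, with or without the replicate block, and when WT replicate 2 or KO replicate 3 was left out (up to 0.154). Il2rg, the common gamma chain, averaged 498 and 513 CPM (log2 fold change 0.04 ± 0.05). Jak1 averaged 995 and 937 CPM and Stat5a 146 and 136 CPM, and neither passed the test. Jak2, a kinase of other cytokine receptors, rose from 186, 177 and 182 CPM to 282, 259 and 269 CPM (0.57 ± 0.05). The phosphatase genes Ptpn11 and Ptpn22, which act on cytokine and T cell receptor signals, rose by 0.62 ± 0.06 and 0.55 ± 0.08. Of 22 genes of JAK-STAT regulators, 7 were higher (4 without KO cTreg replicate 2) and 3, Cish, Socs1 and Socs2, were lower.

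Promoters were read for the letters of the STAT motif TTCNNNGAA, the same on both strands, in the 250 bases before RefSeq starts (GRCm38.p6, the mm10 assembly). Of all 32851 promoters 7.02% hold it, against 6.69% of those of genes lower, 6.36% of those of genes higher and 5.8% of those of genes not called in KO cTreg. The shares by call were close to each other, and 6% of the promoters of genes tested hold it. Of the 26 promoters matched for 21 of the STAT5 target genes, 4 hold it (15.4%). Of the 23 matched for 16 of the follicular genes, 4 hold it (17.4%), and 2 of these 4 are promoters of 1 gene, Bcl6. Both are above the share of genes tested, but they rest on few promoters and were not tested. Below are 2 targets that were lower, Lta and Tnfrsf18, and 1 follicular gene that was higher, Bcl6, with the motif in capitals and 5′ to 3′ on the gene's strand, because the same letters stand before genes that moved in opposite directions.
Lta, chr17:35205352-35205601, minus strand: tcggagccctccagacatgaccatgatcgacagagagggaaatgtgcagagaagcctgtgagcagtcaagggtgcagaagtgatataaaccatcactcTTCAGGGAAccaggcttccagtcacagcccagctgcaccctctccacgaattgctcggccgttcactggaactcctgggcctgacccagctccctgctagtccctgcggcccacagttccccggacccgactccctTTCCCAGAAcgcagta
Tnfrsf18, chr4:156026072-156026321, plus strand: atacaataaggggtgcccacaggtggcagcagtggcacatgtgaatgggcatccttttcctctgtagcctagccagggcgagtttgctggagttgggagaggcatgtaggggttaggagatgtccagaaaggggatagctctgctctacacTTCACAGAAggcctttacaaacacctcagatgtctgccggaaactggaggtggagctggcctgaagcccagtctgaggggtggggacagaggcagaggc
Bcl6, chr16:23981284-23981533, minus strand: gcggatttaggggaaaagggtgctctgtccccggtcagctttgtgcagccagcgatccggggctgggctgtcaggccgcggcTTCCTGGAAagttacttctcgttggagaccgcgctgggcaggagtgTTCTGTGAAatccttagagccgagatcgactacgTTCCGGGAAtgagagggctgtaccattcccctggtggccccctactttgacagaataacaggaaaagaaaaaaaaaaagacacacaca
Lta holds 2 matches, Tnfrsf18 1 and this Bcl6 promoter 3, while the other Bcl6 promoter, not printed, holds 1. A match is a run of letters in this window and not a measured binding site.

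Surface receptors moved in both directions, and chemokine receptors mostly rose. Of 28 genes of chemokine and other chemoattractant receptors, 17 were higher and 2 lower, with a median of 0.89. Ccr2, a receptor for inflammatory chemokines, rose from 5.61, 7.43 and 6.07 CPM to 30.2, 44.5 and 63.3 CPM (log2 fold change 2.85 ± 0.42, adjusted p = 0.00128). The KO libraries spread widely but stayed above all WT libraries. Ccr4, a skin and tissue homing receptor, rose from 30.9, 50.8 and 30.5 CPM to 75.9, 112 and 117 CPM (1.44 ± 0.26), and Cxcr6, a receptor of tissue T cells, from 1.20 ± 0.602 to 11 ± 1.10 CPM (3.17 ± 0.40). The 2 falls were Ccr7, which admits T cells to lymph nodes (from 324 to 213 CPM), and Ccr9, a gut homing receptor (from 13.4 to 6.13 CPM).

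Cytokine receptor genes other than those of the common gamma chain split evenly, with 8 of 29 higher and 8 lower. Il18rap, a chain of the interleukin-18 receptor, rose from 9.70, 12 and 8.38 CPM to 24.4, 44.3 and 41.8 CPM (1.88 ± 0.32). Il10ra, the ligand-binding chain for interleukin-10, rose from 70.5 ± 7.35 to 104 ± 11.1 CPM, while its partner chain Il10rb, named after its value was seen, fell from 69.1, 66.4 and 71.8 CPM to 48.1, 48.6 and 50.8 CPM (-0.49 ± 0.05). The 2 chains of 1 receptor thus moved in opposite directions. Ifngr2, a chain of the interferon gamma receptor, fell by 0.62 ± 0.11 and Acvr1b, an activin receptor, by 0.61 ± 0.10 on the log2 scale.

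Among inhibitory and costimulatory receptors rises outnumbered falls. Of 18 inhibitory receptor genes 9 were higher, 2 lower and 7 not called, and of 20 costimulatory genes 6 were higher and 13 not called. Lag3, which binds MHC class II, rose from 10.8, 7.64 and 7.99 CPM to 38.7, 41.3 and 32.4 CPM (2.09 ± 0.15, adjusted p = 7.70e-07). Pdcd1, the gene of PD-1, rose from 28.6 ± 3.99 to 71 ± 8.99 CPM. Icos, a costimulatory receptor of effector and follicular T cells, rose from 75.9, 117 and 73.5 CPM to 321, 353 and 344 CPM, 3.82-fold. Cd28, the main costimulatory receptor, rose 1.52-fold and Slamf6, a receptor of T and B cell contact, 1.63-fold. Cd72, known as an inhibitory receptor of B cells, went the other way, from 31.3, 26.7 and 16.3 CPM to 9.19, 8.78 and 8.57 CPM (-1.48 ± 0.23), and so did Cd86, a ligand of CD28 and CTLA-4 (-1.02 ± 0.14). Summed B cell markers were also lower in KO cTreg, as given above; the 3 of them that could be tested include Cd79b, at 11.2 and 8.15 CPM. Their part in the Cd72 value was not tested.

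**Figure D2:**
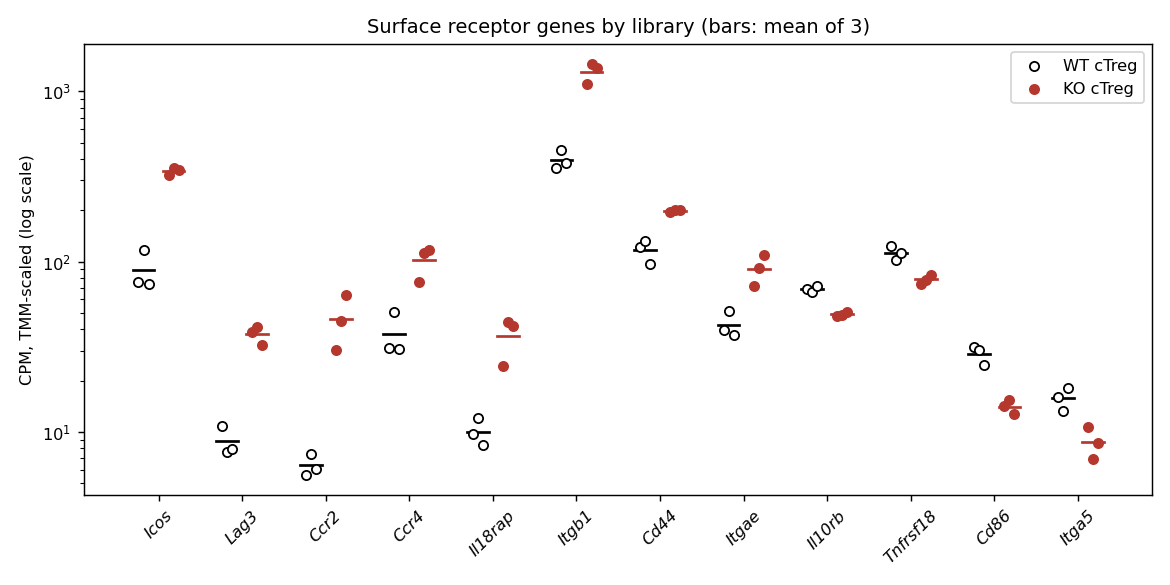
CPM (log scale) of 12 surface receptor genes in each WT cTreg (open circles) and KO cTreg (filled circles) library; bars mark the group means. Icos, Lag3, Ccr2, Ccr4, Il18rap, Itgb1, Cd44 and Itgae are higher in all 3 KO libraries, and Il10rb, Tnfrsf18, Cd86 and Itga5 are lower.

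TNF receptor genes had no common direction, with 5 of 19 higher (3 without WT cTreg replicate 3) and 4 lower. Tnfrsf18, the gene of GITR and a receptor typical of Tregs, fell from 124, 102 and 112 CPM to 74, 78 and 83.8 CPM (-0.52 ± 0.08). Tnfrsf25, a receptor that expands Tregs, fell from 105 ± 3.25 to 77.6 ± 2.02 CPM. Tnfrsf1b, the gene of TNFR2, rose from 190 ± 23 to 264 ± 21 CPM, and Tnfrsf26 rose from 46.9 ± 4.53 to 68.6 ± 1.77 CPM. Tnfrsf4, the gene of OX40, averaged 103 and 86.1 CPM with overlapping groups (adjusted p = 0.0842). On the ligand side, 6 of 13 TNF family genes were higher and 3 lower, the falls being Lta, Tnf and Ltb. The call of Ltb ended when any 1 of 7 libraries was left out, with adjusted p-values up to 0.139. Cd40lg, which helps B cells, rose from 22.4 ± 1.73 to 40.8 ± 2.05 CPM.

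Of 32 adhesion genes 15 were higher, 4 lower and 13 not called. Itgb1, the integrin beta 1 chain, rose from 353, 453 and 377 CPM to 1111, 1437 and 1372 CPM (1.73 ± 0.16), a 3.31-fold change at a high level. Cd44, the hyaluronan receptor of activated T cells, rose from 117 ± 18.1 to 199 ± 3.22 CPM, and Itgae, the alpha chain of CD103, from 39.9, 51 and 36.9 CPM to 72, 92 and 109 CPM. Alcam, a ligand of CD6, rose 3.85-fold from 3.76 CPM. Itga5, which pairs with Itgb1 as the fibronectin receptor, fell from 15.8 ± 2.37 to 8.75 ± 1.86 CPM (-0.86 ± 0.15).

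Of 40 other G protein-coupled receptor and related genes, 14 were higher and 4 lower (7 with the length and GC offset). Adora2a, an adenosine receptor, rose from 32.9 ± 2.28 to 45.7 ± 3.79 CPM. Ramp1, a partner of the CGRP receptor, fell from 37.3, 25.4 and 32.1 CPM to 17.8, 16 and 16.1 CPM (-0.92 ± 0.14). A list of ectoenzymes and of genes that handle nucleotides or adenosine, not all outside the cell, split. Of its 17 genes 4 were higher and 7 lower (4 without KO cTreg replicate 3), with a median of -0.25. Ada, adenosine deaminase, fell from 9.24 ± 1.01 to 5.78 ± 0.539 CPM, whereas Adk, adenosine kinase, rose from 33.3 ± 2.05 to 50.8 ± 4.69 CPM. Nt5e, the gene of CD73, averaged 201 and 204 CPM and did not pass the test. Cd55, a complement regulator, fell from 46.2, 45.1 and 42.9 CPM to 20.3, 20.4 and 21.3 CPM (-1.11 ± 0.11). Of 40 ion channel genes 13 were higher and 8 lower, and Lrrc8d, a subunit of volume-regulated anion channels, fell by 0.67 ± 0.06 on the log2 scale.

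Among transcription factors, those of effector and tissue Tregs mostly rose while several that define the Treg lineage fell. Of 35 effector and tissue Treg factors 25 were higher and 1, Plagl1, was lower, with a median of 0.97. The length and GC offset gave 24 higher and 3 lower, and the replicate block over 12 libraries 25 and 2. The lower count was also 2 without KO cTreg replicate 1 or without replicate 1 or 2 of KO eTreg. Maf, a factor of follicular and interleukin-10 producing T cells, rose from 40.2, 59 and 33.2 CPM to 179, 176 and 168 CPM (1.98 ± 0.16). Tbx21, the gene of T-bet, rose from 2.81 ± 0.791 to 19.1 ± 1.55 CPM (2.77 ± 0.19). Rora, a factor of tissue Tregs, rose 2.30-fold, and the paired effector factors Batf and Irf4 rose 2.35-fold and 1.79-fold. Tox2 and Bcl6, both known from follicular T cells, rose 5.58-fold and 2.06-fold, and Eomes, a relative of T-bet, 3.64-fold from 3.77 CPM. All KO libraries were above all WT libraries for each of these 8 genes, as for 20.9% of all genes tested.

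Of 17 Treg-associated factors 6 were higher and 8 lower. Foxp3 fell from 386, 385 and 407 CPM to 233, 217 and 230 CPM, 1.73-fold (-0.79 ± 0.06, adjusted p = 1.47e-07). Ikzf4, the gene of Eos, fell from 183 ± 10.7 to 100 ± 2.80 CPM, and Bach2, which holds back effector differentiation, from 282 ± 15.6 to 178 ± 17.8 CPM. Foxp1, a partner of Foxp3, fell by 0.50 ± 0.07 on the log2 scale. Gata1, best known from the red cell lineage, fell from 35.8, 29.6 and 36.7 CPM to 15.8, 11.2 and 11.1 CPM (-1.42 ± 0.21). Summed erythroid and platelet markers reached 7.15 to 13.4 CPM in WT and 3.41 to 11.9 CPM in KO cTreg, ranges that overlap. In contrast Ikzf2, the gene of Helios, rose from 588 ± 38.4 to 776 ± 8.87 CPM, and Runx3, Gata3 and Nfatc1 rose by 0.76 ± 0.09, 0.53 ± 0.06 and 0.70 ± 0.05. The Eos and Helios genes of 1 family therefore moved in opposite directions.

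Factors of resting and memory T cells gave 3 higher and 6 lower of 26. Klf2 and Lef1, markers of quiescent T cells, averaged 473 and 439 CPM and 424 and 370 CPM, and neither passed the test. Of 17 STAT and IRF genes 11 were higher, most by little. The higher count was 6 with the length and GC offset and when KO cTreg replicate 1, or replicate 2 or 3 of WT cTreg, was left out. Among NF-kB genes Nfkb2 rose by 0.39 ± 0.06 and Nfkbiz, an atypical inhibitor family member, fell by 0.43 ± 0.08. Of the 10 MYC network genes 3 were lower and 0 higher, against 1 and 0 without KO cTreg replicate 2 and 4 and 1 without KO cTreg replicate 1. In the circadian group Dbp fell from 30.5 ± 4.36 to 15.1 ± 0.804 CPM, while Cebpa, which is known from myeloid cells, rose from 2.41, 1.37 and 0.692 CPM to 19.5, 12.6 and 12.1 CPM (3.30 ± 0.34); summed myeloid markers are given above and their part was not tested. Thra, a thyroid hormone receptor, fell from 23.3 ± 1.96 to 14.1 ± 1.29 CPM.

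**Figure D3:**
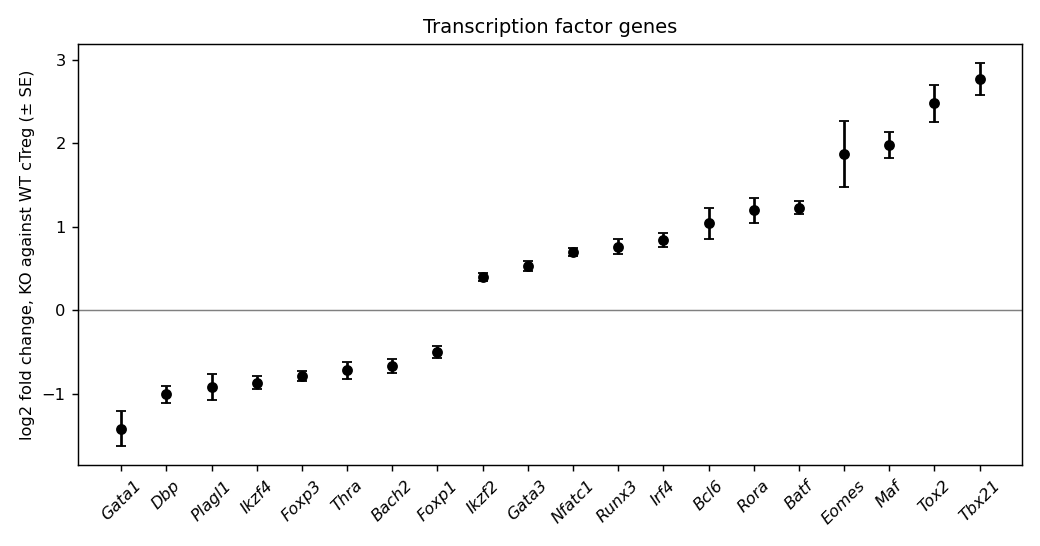
Log2 fold change, KO against WT cTreg, with its SE (bars) for 20 transcription factor genes in order of size. Factors from Gata1 to Foxp1 are below 0, and those from Ikzf2 to Tbx21 above it.

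The most uniform change in metabolism was in protein synthesis. Of 80 cytosolic ribosomal protein genes, 76 were lower and 0 higher in KO cTreg, against 12.6% lower over all genes, with a median of -0.36; the offset for length and GC left 77 lower and 0 higher. Each change was small. Rpl12 fell from 1553, 1352 and 1373 CPM to 954, 970 and 994 CPM (-0.55 ± 0.05), and Rps19 from 741, 660 and 637 CPM to 432, 490 and 475 CPM (-0.54 ± 0.07). Rpl3 fell 1.34-fold and Rplp0, a stalk protein, 1.19-fold. The KO libraries lay below the WT libraries in each, as for 19.5% of all genes tested. Many ribosomal protein genes have near-identical pseudogene copies, so single values are uncertain where reads could be split.

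Genes that build ribosomes moved with them. Of 63 ribosome biogenesis and nucleolar genes 43 were lower and 0 higher (median -0.32). Polr1b, a subunit of RNA polymerase I, which transcribes ribosomal RNA, fell from 43.5, 45 and 49.6 CPM to 31.5, 27.7 and 28.1 CPM (-0.66 ± 0.08). Nle1, a factor of the large subunit, fell from 27.2 ± 1.95 to 16.5 ± 0.867 CPM, and the nucleolar genes Npm1, Ncl and Fbl fell by 0.46 ± 0.06, 0.31 ± 0.05 and 0.50 ± 0.08 on the log2 scale. Rn45s, the ribosomal RNA that depletion leaves, was also a smaller share in KO cTreg, as given above. In eTreg it took 4.11 to 4.34% of counts in WT and 3.19 to 3.32% in KO. Depletion and expression cannot be told apart in these shares, so they were not read as expression, and their cause was not tested. Of 42 translation factor genes 14 were lower (8 without KO cTreg replicate 3) and 0 higher, among them Eef1b2 (from 528 ± 25.9 to 388 ± 7.43 CPM). Eef2k, the kinase that inhibits elongation factor 2, also fell, from 23.5, 22.2 and 21.7 CPM to 10.7, 10.2 and 11.9 CPM (-1.04 ± 0.11).

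Nucleotide and one-carbon synthesis leaned the same way, with 16 of 38 genes lower and 3 higher (5 without KO cTreg replicate 1; median -0.16). Impdh2, the rate-limiting enzyme of guanine nucleotide synthesis, fell from 83.7, 75 and 79.8 CPM to 54.5, 54.4 and 51.3 CPM (-0.57 ± 0.06), and its relative Impdh1 fell by 0.59 ± 0.07. Mthfd1, an enzyme of the folate cycle, fell from 55 ± 5.50 to 36.1 ± 2.78 CPM and Shmt2, which feeds serine into it in mitochondria, from 62.1 to 46.4 CPM. The exceptions were Tyms, which makes thymidylate for DNA (from 10.4 ± 0.316 to 19.2 ± 6.17 CPM), the deoxynucleoside kinase gene Dck (from 42.7 ± 3.27 to 70.0 ± 9.47 CPM) and Rrm1, a subunit of ribonucleotide reductase (from 44.8 to 66.9 CPM). Leaving out replicate 2 or 3 of either cTreg group ended the call of Rrm1 (adjusted p up to 0.0943). These 3 serve DNA synthesis or salvage. In the cell cycle list 11 of 64 genes were higher and 2 lower, against 14.8% and 12.6% over all genes, with a median of 0.67. All KO libraries lay above all WT libraries for 23 of the 64 and below for 3, against 20.9% and 19.5% of all genes. The higher count moved between 5 and 19 as single libraries were left out. It was 5 to 7 when replicate 2 or 3 of either cTreg group or replicate 3 of either eTreg group was left out. Without KO eTreg replicate 2 or KO cTreg replicate 1 it was 18 or 19.

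The E-box CACGTG, which MYC and other factors bind, was read in the same promoter windows. It stands in 8.24% of the promoters of genes tested, in 9.57% of those of genes lower and in 6.92% of those of genes higher in KO cTreg. Of the 40 promoters of the nucleotide and one-carbon genes 15% hold it, and of the 69 of ribosomal protein genes 10.1%. Of the 66 promoters of ribosome biogenesis and nucleolar genes 6.06% hold it, below the share of genes tested. The differences between these shares were not tested. The promoters of Impdh2, a nucleotide synthesis gene, and Rps19, a ribosomal protein gene, both lower, are shown with the E-box in capitals.
Impdh2, chr9:108560186-108560435, plus strand: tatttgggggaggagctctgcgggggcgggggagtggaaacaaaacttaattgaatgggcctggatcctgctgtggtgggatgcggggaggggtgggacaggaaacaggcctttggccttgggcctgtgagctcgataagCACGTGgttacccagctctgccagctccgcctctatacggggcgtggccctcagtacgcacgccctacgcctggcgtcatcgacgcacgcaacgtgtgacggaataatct
Rps19, chr7:24884663-24884912, plus strand: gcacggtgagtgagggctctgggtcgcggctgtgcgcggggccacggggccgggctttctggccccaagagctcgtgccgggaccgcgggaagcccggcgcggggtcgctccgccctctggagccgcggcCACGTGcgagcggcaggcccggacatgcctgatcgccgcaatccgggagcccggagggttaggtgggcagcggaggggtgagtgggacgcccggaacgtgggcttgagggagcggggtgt
Each holds 1 match, and Rps19 has 3 promoters in the table, of which the 1 printed holds the motif. Myc itself fell from 157, 140 and 177 CPM to 58.5, 52.1 and 55.9 CPM.

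**Figure D4:**
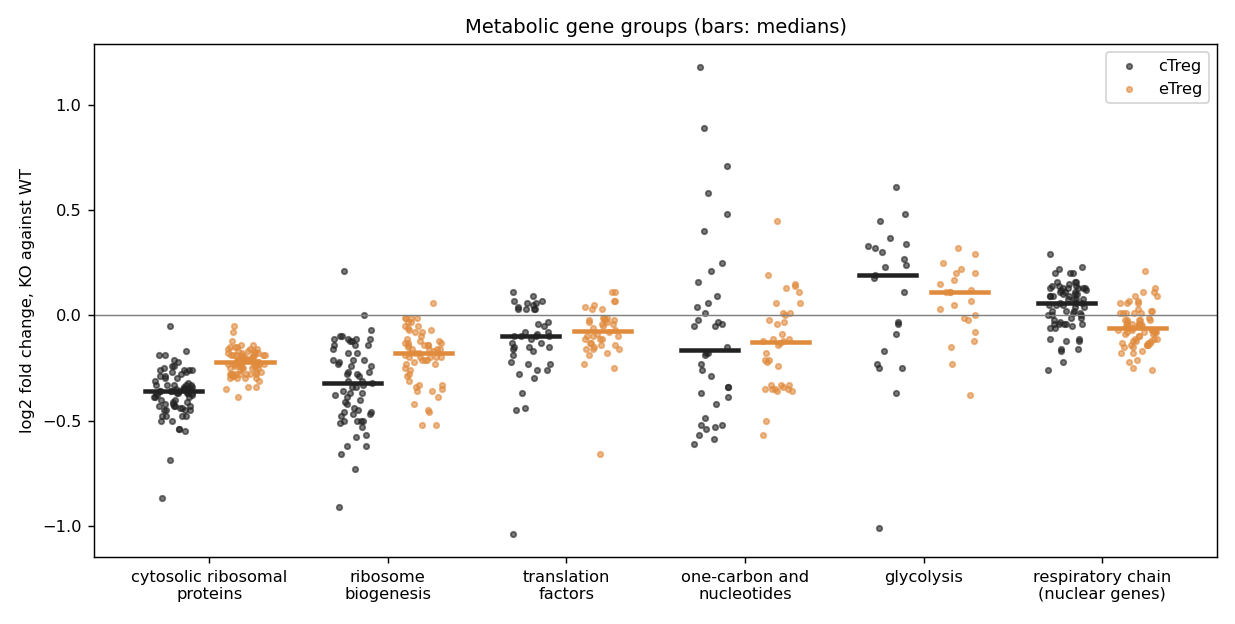
Log2 fold change, KO against WT, of every tested gene of 6 metabolic groups, in cTreg (dark) and in eTreg (light); each point is a gene and each bar the group's median. Ribosomal protein and ribosome biogenesis genes lie below 0 almost throughout in cTreg and less far below in eTreg, and respiratory chain genes are centred near 0. The difference between the gates passed the test for 0 of the ribosomal protein and 0 of the ribosome biogenesis genes.

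Amino acid supply and mTORC1 genes split, with 9 of 43 higher and 8 lower. The rises were 4 or 5 when WT cTreg replicate 1, either of replicates 2 and 3 of KO cTreg, or replicate 3 of either eTreg group was left out. Slc7a5, the large neutral amino acid transporter, fell from 52.3, 43.1 and 55.9 CPM to 29, 31.9 and 31.5 CPM (-0.71 ± 0.10). Rragd, a GTPase that brings mTORC1 to the lysosome, fell from 21.3, 21.4 and 16.5 CPM to 10.2, 7.50 and 7.91 CPM (-1.21 ± 0.21), and Sesn1, a leucine-sensing inhibitor of mTORC1, from 122 ± 9.40 to 78.8 ± 7.04 CPM. An activator and an inhibitor of the same complex were thus both lower. In the polyamine pathway Srm, spermidine synthase, fell from 28.3 ± 4.40 to 15.1 ± 1.02 CPM and Smox, spermine oxidase, from 20.3 ± 3.10 to 11 ± 0.655 CPM. Azin1, an activator of ornithine decarboxylase, rose from 75.4 ± 6.43 to 107 ± 2.64 CPM. Gsto1, a glutathione transferase, fell from 23.2, 16.8 and 22.1 CPM to 8, 7.50 and 8.11 CPM (-1.39 ± 0.14), while Prdx1, a peroxide scavenger, rose from 91.6 ± 3.86 to 114 ± 6.65 CPM.

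Central carbon metabolism had no common direction. Of 23 glycolysis genes 9 were higher and 4 lower. Leaving out replicate 2 or 3 of either cTreg group left 5 rises, and leaving out replicate 1 of either group, WT replicate 3 or KO replicate 2 left 1 or 2 falls. Pfkp, a phosphofructokinase, rose from 98.1 ± 3.43 to 134 ± 4.56 CPM, and Eno3, an enolase known from muscle, fell from 21.9 ± 1.71 to 10.9 ± 1.08 CPM (-1.01 ± 0.12). Hif1a, which drives glycolysis genes under low oxygen, was named after its value was seen and rose from 143 ± 13.2 to 248 ± 10.5 CPM. Of 72 nuclear-encoded respiratory chain genes 2 were higher and 3 lower, a share below the background. The counts turned on single libraries: 6 were higher and 0 lower without KO cTreg replicate 1, 5 and 3 without KO eTreg replicate 2, 3 and 0 without WT cTreg replicate 1, 1 and 3 without its replicate 2, 1 and 1 without its replicate 3, 0 and 0 without KO cTreg replicate 2, and 1 and 0 without KO cTreg replicate 3. The median of 0.06 turned to -0.02 with the length and GC offset. Of 33 genes of pyruvate handling and the citric acid cycle 6 were lower and 24 not called, and Pdp1, which activates pyruvate dehydrogenase, fell from 18.1 ± 1.95 to 11.6 ± 0.795 CPM. Cpt1a, which admits fatty acids to mitochondria, averaged 127 ± 39 and 112 ± 28.8 CPM, with overlapping groups.

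Signalling genes outside the IL-2 receptor changed at several points. Of 26 TGF-beta pathway genes 11 were lower and 4 higher. Lrrc32, the gene of GARP, which docks latent TGF-beta on Tregs, fell from 306, 274 and 325 CPM to 118, 88.7 and 104 CPM (-1.54 ± 0.10). Skil, a SMAD repressor, fell from 275 ± 19.1 to 152 ± 15.9 CPM, Tgfbr1, the type 1 receptor, from 104 ± 8.42 to 72 ± 6.50 CPM, and Tgfb1 from 204 ± 4.49 to 171 ± 8.12 CPM. Tgfb3, another ligand of the family, rose from 1.12, 1.15 and 1.31 CPM to 6.89, 8.29 and 7.25 CPM (2.64 ± 0.26). Of 53 genes near the T cell receptor 18 were higher and 7 lower. Without KO cTreg replicate 3 these were 11 and 4, and without WT cTreg replicate 3 or KO cTreg replicate 2 the falls were 2 or 3. Sla, an adaptor that dampens the receptor, rose from 205 ± 3.09 to 333 ± 11.5 CPM. In the PI3K group Pik3r1, a regulatory subunit, fell by 0.38 ± 0.07 and the kinase gene Sgk1 rose from 16.7 ± 1.66 to 34.1 ± 2.95 CPM. Rgs1, which blunts chemokine receptor signals, fell from 150, 148 and 124 CPM to 70.5, 48.6 and 51.2 CPM (-1.32 ± 0.15), while Gna15, a G protein alpha subunit, rose from 12.6 ± 1.36 to 37.8 ± 7.74 CPM.

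Several groups of effector cell products held many rises. Of 25 S100, annexin and galectin genes, many of which mark effector and memory cells, 16 were higher and 0 lower, with a median of 0.50. S100a6, a calcium-binding protein, rose from 13.8, 15.6 and 14.7 CPM to 66.2, 103 and 99.4 CPM (2.61 ± 0.33), and S100a4 and Anxa2 rose 5.46-fold and 3.97-fold. Replicate 1 was the lowest KO library for all 3 genes and still lay above all WT libraries. Of 30 granule and serpin genes 15 were higher and 3 lower, and Nkg7, a granule protein, rose from 3.53 ± 1.16 to 19.3 ± 3.75 CPM. The CD8 T and NK cell markers summed above were also higher in KO cTreg, and their part here was not tested. Of 24 follicular T cell genes 21 were higher and 0 lower. Guanylate-binding and immunity-related GTPases gave 12 of 17 higher and 0 lower, with a median of 0.36. Casp8, an initiator protease of cell death, fell from 234 ± 9.93 to 164 ± 3.88 CPM.

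Among the 25 largest changes in either direction of well-expressed genes were several outside these groups. Smtn, a smooth muscle actin-binding protein, rose from 5.61, 12.9 and 5.46 CPM to 65.1, 60.4 and 52.1 CPM (2.87 ± 0.48), and Gpm6b, a membrane glycoprotein, from 6 ± 2.61 to 37.5 ± 4.59 CPM. Myo1f, an unconventional myosin of leukocytes, rose 5.42-fold and Emp1, a membrane protein, 4.29-fold. Gcnt1, a glycosyltransferase that builds selectin ligands, rose from 4.57, 12 and 5.38 CPM to 30.0, 35.5 and 34.1 CPM. On the other side Stra6, a vitamin A transporter, fell from 29.2, 13.6 and 24.5 CPM to 2.67, 3.29 and 2.77 CPM, 7.65-fold (-2.93 ± 0.35). Ecm1, a secreted matrix protein also made by T cells, fell from 126 ± 11.9 to 41.7 ± 0.963 CPM, Coro2a, an actin-binding protein, from 239 ± 28.8 to 85.1 ± 5.98 CPM, and Nrarp, a Notch target, from 17.9 ± 3.19 to 6.48 ± 1.23 CPM.

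The KO against WT comparison in eTregs, which uses other libraries and KO cells also gated as low in CD25, gave 829 calls (6.65%). Of these, 405 were higher (3.25%) and 424 lower (3.4%). Whether the 2 gates were sorted from the same pooled mice was not examined, and the main fit treats the 12 libraries as independent. Blocking on the replicate number, which may pair the 6 eTreg libraries, gave 1712. Leaving out WT eTreg replicate 2 gave 455 calls, leaving out its replicate 3 gave 497, and leaving out KO eTreg replicate 3 gave 462. Of the 3421 cTreg calls 668 (19.5%) were also called in eTreg, which is 80.6% of the eTreg calls, and 659 of the 668 had the same direction. The difference between the 2 effects, tested directly as an interaction over the 12 libraries, passed for 474 genes (3.8%), and for 314 without KO cTreg replicate 2. For 374 of these the KO effect was more positive in cTreg and for 100 more negative (0.803%); the length and GC offset gave 340 and 303. Effector factors were common among them: 18 of the 35 effector and tissue Treg factors had a more positive effect in cTreg, against 3% of all genes tested (12 to 19 of the 35 under the alternatives). Batf rose by 1.23 ± 0.08 in cTreg and 0.60 ± 0.08 in eTreg, a difference of 0.63 ± 0.11, and Irf4 by 0.84 ± 0.08 in cTreg with a value of 0.03 ± 0.08 in eTreg. In WT cells Irf4 stood at 69.8 CPM in cTreg and at 161 CPM in eTreg. The 80 ribosomal protein genes had a median of -0.36 in cTreg and -0.22 in eTreg. Of these, 54 were also lower in eTreg and 0 higher, and the difference between the gates passed for 0 of the 80.

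**Figure D5:**
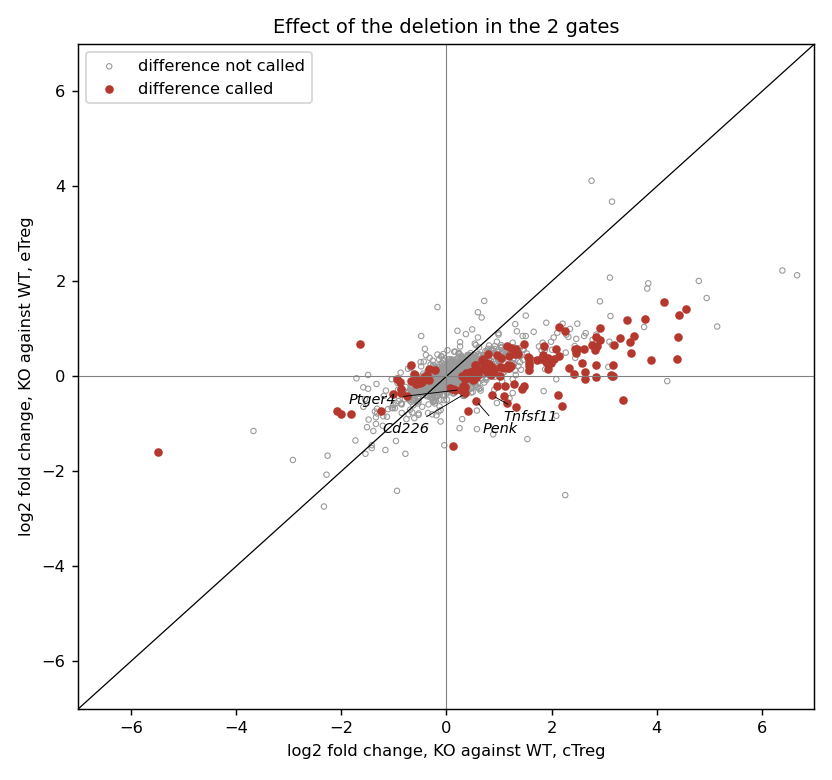
Log2 fold change, KO against WT, in cTreg (horizontal) and in eTreg (vertical) for the tested genes of all lists; filled points passed the test of the difference between the gates and open points did not, and the diagonal marks equal effects. Most filled points lie below the diagonal at the right, and Tnfsf11, Penk, Cd226 and Ptger4 lie at the lower right, higher in cTreg and lower in eTreg.

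A few genes changed in opposite directions in the gates. Tnfsf11, the gene of RANK ligand, rose from 18, 19.7 and 16.3 CPM to 35.6, 28.7 and 34.6 CPM in cTreg and fell from 102 to 77.2 CPM in eTreg, a difference between the log2 fold changes of 1.26 ± 0.14. Penk, the enkephalin precursor, rose from 6.42 ± 0.738 to 9.42 ± 1.44 CPM in cTreg and fell from 131 to 91.6 CPM in eTreg (difference 1.07 ± 0.15). Cd226, which competes with TIGIT for ligands, rose by 0.36 ± 0.08 and fell by 0.36 ± 0.07, and Ptger4, a prostaglandin receptor, rose by 0.27 ± 0.07 and fell by 0.28 ± 0.07. The rule that names such genes asks for a called cTreg effect, a called difference and opposite signs. Those calls were therefore fixed by the choice of genes and are no support. The rule does not ask for a called eTreg effect, which passed the test in each of these 4 genes. Adjusted p-values for the difference ran from 0.00017 to 0.0032. Over all genes tested, 9 were called in both gates with opposite directions. In WT cells all 4 averaged higher in eTreg than in cTreg.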

How the data were processed

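The deposited table holds raw read counts per gene symbol for 12 libraries of total RNA depleted of ribosomal RNA, per the labels' protocols. HISAT2 2.2.1, Cell Ranger and the mm10 build are named in the submitters' processing notes. The sources used here give no counting tool, annotation or strand setting, and overlapping and antisense genes therefore cannot be told apart. Symbols altered to dates were kept as separate rows, and the table lists no mitochondrially encoded genes.

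Counts were filtered with filterByExpr, scaled by TMM and fitted in edgeR 4.0.16 (R 4.3.3) with robust quasi-likelihood over the 12 libraries of 4 groups, with Benjamini-Hochberg adjustment over 12461 genes. Each SE is the absolute log2 fold change over the root of its F statistic, and CPM use TMM-scaled library sizes. The common biological coefficient of variation was 0.0768. The fit was tested on simulated data. cTreg replicates differed beyond counting noise (chi-square per degree of freedom 3.68 to 8.55), so none was a duplicate. Same-numbered eTreg libraries deviated together (correlations 0.257, 0.341 and 0.166), a pairing read from the data alone, as no label states it.

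Alternatives were DESeq2 1.42.0 size factors and Wald test, limma-voom (limma 3.58.1), library size without Rn45s, other filters, 6 libraries per gate, the replicate block, an offset for transcript length and GC content (GENCODE vM21 on mm10, 95.9% of genes matched) and leaving out each library. The 69 gene lists and the members were chosen with earlier results of these data known. Genes named are the first 3 of a list, its 3 largest called rises or falls at a mean log2 CPM of at least 1, and the 25 largest non-overlapping changes in either direction at a mean log2 CPM of at least 3. List members with a called cTreg effect, a called difference and opposite signs in the gates were also named. Exceptions are marked. Promoters are from RefSeq on GRCm38.p6. Some genes are not reported here.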

Additional observations from a re-analysis of the deposited data

Results flagged for a closer look

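For 51 of the genes named above the KO effect, deletion and CD25 gate together, differed between the central and effector gates. The test was edgeR's interaction test over the 12 libraries (adjusted p under 0.05). Each value in parentheses is the KO against WT log2 fold change in cTreg minus that in eTreg, with its SE, from 3 libraries per group. The effect was more positive in cTreg for 40 of them and more negative for 11. The genes were not drawn at random, since many were named for a large change in cTreg, so these shares describe the selection.

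Among surface receptors and adhesion genes the effect was more positive in cTreg for Cxcr6 (2.94 ± 0.47), Ccr2 (2.60 ± 0.52), Gpm6b (2.13 ± 0.27), Alcam (1.79 ± 0.16), Ccr4 (1.71 ± 0.36), Icos (1.54 ± 0.25), Itgae (1.51 ± 0.30), Lag3 (1.51 ± 0.20), Itgb1 (1.39 ± 0.22), Pdcd1 (0.83 ± 0.18), Cd226 (0.72 ± 0.10), Cd44 (0.67 ± 0.13), Ptger4 (0.55 ± 0.10), Tnfrsf1b (0.50 ± 0.10), Cd28 (0.49 ± 0.09) and Adora2a (0.42 ± 0.11). It was more negative for Il10rb (-0.40 ± 0.07) and Tnfrsf18 (-0.43 ± 0.11). Among transcription factors and their regulators it was more positive for Cebpa (2.5 ± 0.42), Tbx21 (2.10 ± 0.25), Tox2 (1.91 ± 0.28), Maf (1.70 ± 0.21), Nfil3 (1.37 ± 0.16), Prdm1 (1.20 ± 0.17), Rora (1.03 ± 0.20), Irf4 (0.82 ± 0.12), Batf (0.63 ± 0.11), Nfatc1 (0.54 ± 0.07), Runx3 (0.48 ± 0.12), Gata3 (0.44 ± 0.08) and Hif1a (0.32 ± 0.09), and more negative for Skil (-0.52 ± 0.11) and Ikzf4 (-0.60 ± 0.11). Among the other genes it was more positive for Tgfb3 (2.54 ± 0.36), S100a6 (2.04 ± 0.45), Nkg7 (1.97 ± 0.45), Myo1f (1.87 ± 0.27), Gna15 (1.36 ± 0.29), Tnfsf11 (1.26 ± 0.14), Penk (1.07 ± 0.15), Sgk1 (0.82 ± 0.19), Cd40lg (0.66 ± 0.17), Azin1 (0.39 ± 0.09) and Sla (0.32 ± 0.07), and more negative for Ccnd2 (-0.33 ± 0.07), Casp8 (-0.37 ± 0.07), Lrrc8d (-0.57 ± 0.09), Eno3 (-0.63 ± 0.17), Coro2a (-0.75 ± 0.12), Smox (-0.78 ± 0.17) and Ecm1 (-0.86 ± 0.14).

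The call of the difference held under every alternative for 34 of the 51 genes. It ended under 1 or more alternatives for the other 17, with adjusted p-values up to 0.142; these are Cxcr6, Ccr2, S100a6, Nkg7, Ccr4, Itgae, Gna15, Rora, Pdcd1, Sgk1, Cd40lg, Runx3, Adora2a, Azin1, Hif1a, Tnfrsf18 and Eno3. Leaving out a single library was enough for 16 of these, and for Cxcr6 it was limma-voom (adjusted p = 0.098). Groups of 3 libraries are too small for the test of a single outlying library.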

How the results depend on the processing

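The KO against WT cTreg comparison gave 3421 calls as reported, 2534 to 3490 with 1 library left out and 2550 to 3681 under the other alternatives. The lowest count came without KO cTreg replicate 2. The length and GC offset turned its split from 1847 higher and 1574 lower to 1468 and 2213. The replicate block gave 3410 calls over the 12 libraries and 2550 in the 6 cTreg libraries. Same-numbered cTreg libraries correlated at -0.105, 0.00473 and 0.0622, and only replicate 3 correlated best with its own number. No pairing is seen in these values, but 3 libraries per group are too few to exclude 1. The KO against WT eTreg comparison gave 829 calls as reported, 455 to 890 with 1 library left out and 1712 (921 higher, 791 lower) with the replicate block in its 6 libraries. Library size without Rn45s split it into 301 higher and 546 lower. With that eTreg block Tnfsf11, Penk, Cd226 and Ptger4 stayed lower (adjusted p 9.72e-05, 1.04e-05, 6e-05 and 0.000214). The difference between the gates gave 474 calls as reported, 314 to 570 with 1 library left out and 369 to 643 under the other alternatives, and the offset split it into 340 and 303. The causes were not tested. Of the named genes tested, none reversed a call in cTreg. Calls ended under 1 or more alternatives for Rrm1, Ltb, Jak3, Stat5b and Cd79b, and appeared under 1 or more for Jak1, Stat5a and Tnfrsf4. The number of pooled libraries, 3 per group, limits the precision for genes of few counts.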
